A study of Mus musculus with 18 samples.

Results

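Colon from mice with colitis induced by trinitrobenzenesulfonic acid (TNBS) and given vehicle was compared with colon from sham mice. The comparison took the 6 columns labelled vehicle at day 2 and the 6 labelled sham at day 2, 12 of the 18 libraries of an RNA-seq table of mouse colon. The remaining 6 libraries, from TNBS mice given the compound ISM012-042, entered the fit only as part of its estimate of the spread. Vehicle mice had TNBS and vehicle and were sampled on day 2 after induction, and sham mice were sampled on the same day, about 100 mg of colon in each case. The labels used here state neither what sham mice received, nor whether they had vehicle, nor a strain, sex, age or genotype. They also do not say that each library came from its own animal, so p-values describe variation among these libraries, which may be partly technical.

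TNBS is a hapten that is placed in the colon, where it binds host proteins and sets off acute injury and inflammation. In such lesions the surface epithelium is lost or loses its absorptive functions, neutrophils enter the wall along gradients of CXCR2 ligands, and epithelial cells facing the lumen secrete antimicrobial lectins and metal-binding proteins. The normal colon surface carries chloride and bicarbonate exchangers, sodium channels, aquaporins, a mucus layer, detoxifying enzymes and an interferon signal. These functions are the readouts that the comparison bears on.

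Values are TPM, transcript abundances that are scaled by gene length and by library total, and their sequencing depth is unknown. Hoxb13, a homeobox gene of the most distal colon, was at 1.52, 44.0 and 179 TPM (lowest, median and highest) in vehicle libraries and at 9.05, 224 and 288 TPM in sham libraries. The 13 transcripts of the mitochondrial genome took 22.4% to 57.8% of the TPM in vehicle libraries and 29.4% to 42.6% in sham libraries, and 12681 to 13747 genes reached 1 TPM in the 12 libraries. An exact two-sided permutation test over 924 regroupings gave p = 0.571 for the mitochondrial share, 0.348 for genes detected and 0.171 for the log2 Hoxb13 level, with adjusted values of 0.571, 0.523 and 0.513. Vehicle replicates 3, 4 and 5 stood apart, with Hoxb13 at 3.01, 3.40 and 1.52 TPM and mitochondrial shares of 43.1%, 45.2% and 57.8%, while vehicle replicates 1, 2 and 6 had 179, 84.5 and 95.6 TPM of Hoxb13. Because of this, values are also given for the libraries with Hoxb13 of at least 32 TPM (3 vehicle, 4 sham), called Hoxb13-high here, and under 32 TPM (3 vehicle, 2 sham), a split chosen after the data had been seen. It rests on Hoxb13 alone: Hoxa13, another homeobox gene of the distal gut, was at 39.7 and 39.4 TPM in sham replicates 1 and 6, the sham libraries under 32 TPM of Hoxb13, and at 33.1 to 68.0 TPM in the other 4. The Y-linked gene Ddx3y was listed at 0 in all 12 libraries, and Xist was at 11.1 to 78.7 TPM in vehicle and at 49.7 to 99.8 TPM in sham libraries.

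**Figure D1:**
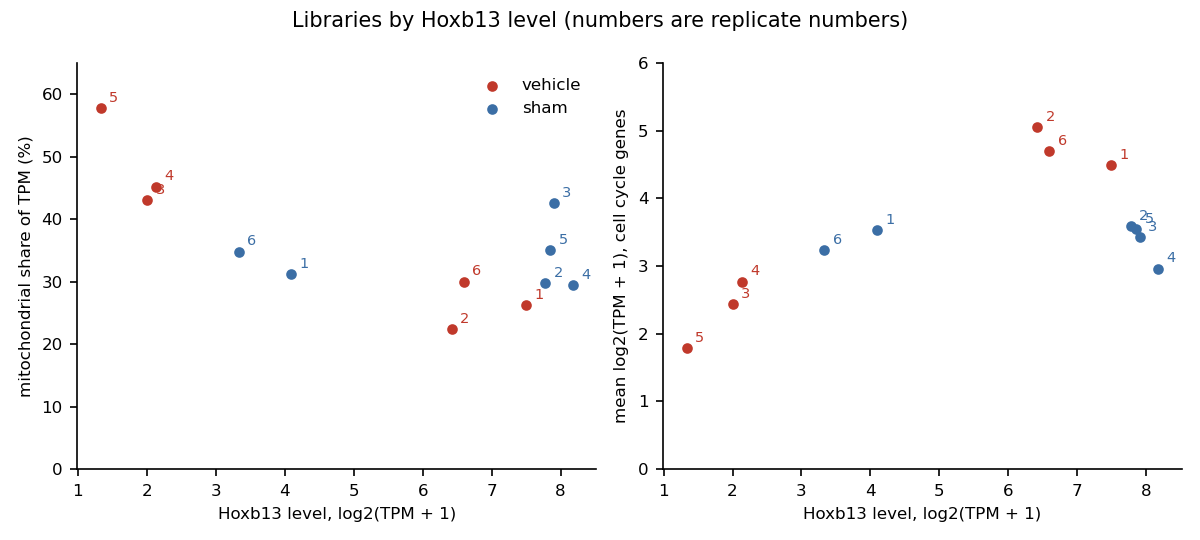
Each point is a library, with its Hoxb13 level as log2(TPM + 1) on the x axes and, on the y axes, the mitochondrial share of TPM in percent (left) and the mean log2(TPM + 1) of 27 cell cycle genes (right); red is vehicle, blue is sham and numbers are replicate numbers. Vehicle replicates 3, 4 and 5 lie at the low end of Hoxb13, with cell cycle means of 2.44, 2.77 and 1.79, below all 6 sham libraries, while vehicle replicates 1, 2 and 6 lie above all of them at 4.49, 5.05 and 4.70.

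Few genes rose, many of them inflammatory and by large factors, and a larger number fell, among them genes of the mature epithelium and of the interferon response. In limma, with Benjamini-Hochberg adjustment over all 14129 genes tested and a threshold of 0.05, 46 genes (0.326%) were higher and 584 (4.13%) lower in vehicle than in sham colon. Of the genes that rose, 20 changed by over 4-fold and 12 by under 2-fold. Of the genes that fell, 38 changed by over 4-fold, 223 by 2-fold to 4-fold and 323 by under 2-fold. The genes that rose were more variable, with a median standard error of 0.40 on the log2 scale against 0.21 over all genes tested. The median log2 difference of all genes was -0.07, and 5839 of the 14129 had a positive difference. Counts of signs given below for lists are to be read beside that share. Higher calls made up 7.3% of all calls, but 33.7% after each library had been divided by its median ratio to the other libraries, a scaling that called 511 genes higher and 1004 lower. In the Hoxb13-high libraries 1028 genes (7.28%) were higher and 279 (1.97%) lower, and in the others 110 (0.779%) were higher and 1829 (12.9%) lower. The median log2 difference of all genes was 0.19 in the Hoxb13-high and -0.40 in the other libraries. List medians given below for these sets are to be read beside those values. Statements below that the groups did or did not overlap cover named genes, many of them picked by a small p. The share of all tested genes without overlap is not given, so such statements describe the values and add no support to a call. All 630 called genes kept their direction in both Hoxb13 sets. These sets are parts of the libraries that gave the calls, so kept directions are no independent support.

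**Figure D2:**
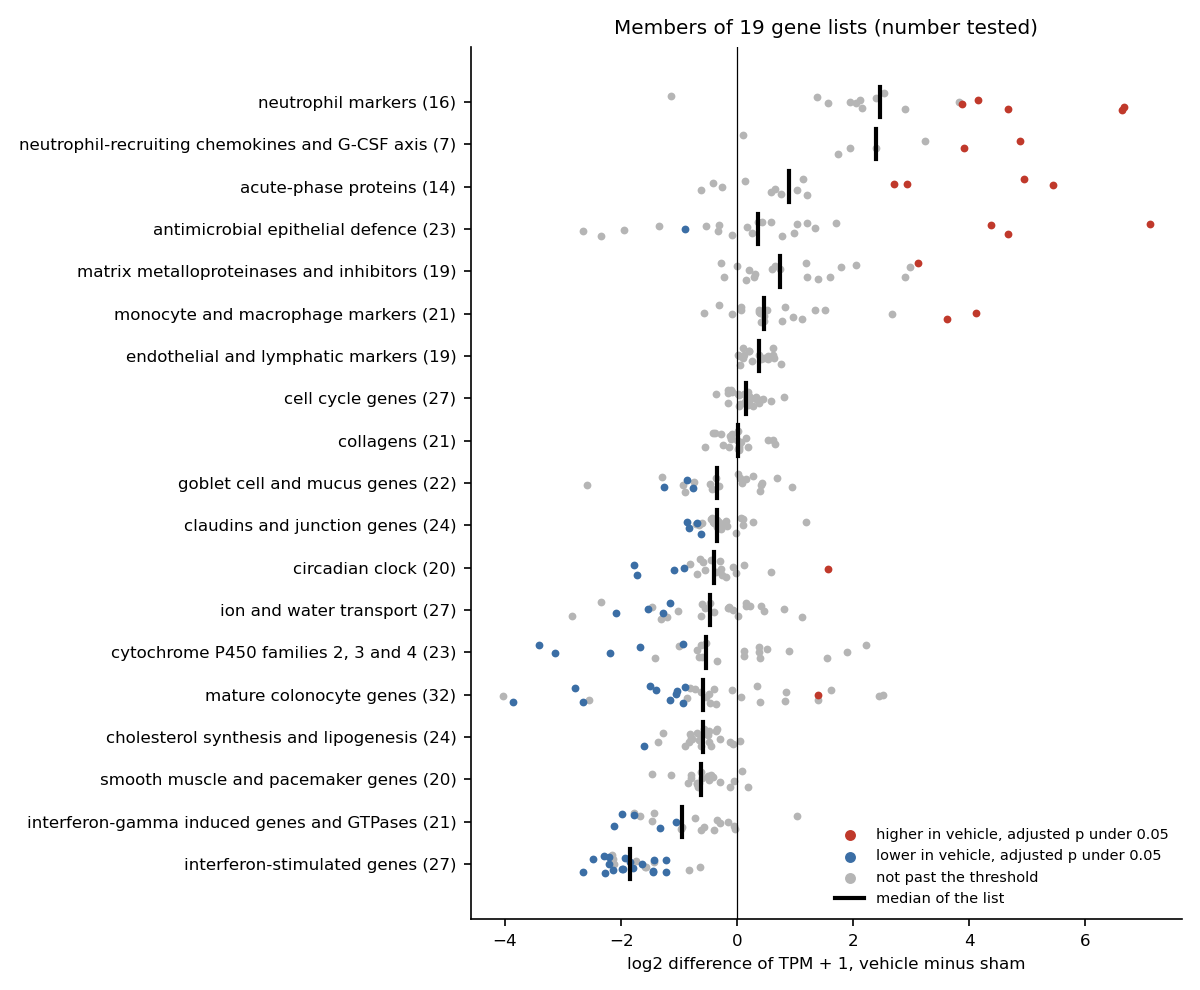
Each point is a tested member of a gene list, placed by its log2 difference of TPM + 1 (vehicle minus sham); red and blue points passed an adjusted p of 0.05 as higher or lower, grey points did not, and the black bar is the median of the list. Neutrophil markers have the highest median of these 19 lists, 2.47, and interferon-stimulated genes the lowest, -1.85.

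Several neutrophil genes rose in vehicle colon. Of 16 tested neutrophil markers 5 rose and none fell, with a list median of 2.47. S100a8 (chr3:90669071-90670034 in GRCm38.p6), a subunit of the neutrophil protein calprotectin, was at 73.8, 227 and 12002 TPM (lowest, median and highest) in vehicle and at 0.508, 2.57 and 9.85 TPM in sham libraries, a log2 difference of 6.63 ± 1.20 (SE; limma adjusted p = 0.00616). The lowest vehicle library stood well above the highest sham library. Its partner S100a9 rose by 6.66 ± 1.19 (adjusted p = 0.00605), with vehicle libraries at 70.9, 246 and 10994 TPM and sham libraries at 0.276, 2.24 and 8.13 TPM. Retnlg, a resistin-like protein made by mouse neutrophils, reached 18.8, 48.6 and 1467 TPM in vehicle against 1.22, 3.22 and 6 TPM in sham libraries (4.15 ± 0.92, adjusted p = 0.0167). In all 3 genes vehicle replicate 2 was the highest library, the groups did not overlap, and the call held in each of the 12 fits that left out a library, this one included.

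Other neutrophil markers had positive differences with less certainty. Wfdc21, a whey acidic protein-domain gene, was at 4.72, 16.4 and 265 TPM in vehicle libraries, against sham libraries with a median listed at 0 and a highest value of 2.72 TPM (3.88 ± 1.04, adjusted p = 0.0417). Its call held in 4 of the 12 fits that left out a library. The collagenase Mmp8 was at 1.33, 3.52 and 164 TPM in vehicle and at most at 0.309 TPM in sham libraries, and the chemokine receptor Cxcr2 was at 0.366, 1.70 and 37.7 TPM in vehicle and at most at 0.272 TPM in sham libraries. Neither passed the threshold (adjusted p = 0.0897 and 0.198), although in both the groups did not overlap. Ly6g, which encodes the surface antigen most used to stain mouse neutrophils, went the other way, at 11.2, 174 and 447 TPM in vehicle and 27.3, 415 and 705 TPM in sham libraries (-1.14 ± 1.18, adjusted p = 0.671). Sham libraries were listed with much Ly6g beside little S100a8. In both groups Ly6g went with the Hoxb13 level, at 280 to 705 TPM in the Hoxb13-high libraries and 11.2 to 68 TPM in the others. Its difference was -0.41 and -0.64 within these sets and 0.60 with Hoxb13 as a covariate. The part of the Hoxb13 level in the Ly6g result was not tested. Ly6g has close paralogs and the sources used here do not state how reads were shared among such genes, so its level may hold reads of other Ly6 genes, which was not tested. The mean log2 level over all neutrophil markers was 2.32 to 8.29 in vehicle and 0.97 to 1.51 in sham libraries, without overlap. Their summed TPM, which includes Ly6g, was 1082, 29384, 522, 429, 216 and 1671 in vehicle replicates 1 to 6 and 40.6 to 730 in sham libraries, so vehicle replicates 3, 4 and 5 lay within the sham range on that scale. In bulk RNA more cells of a type and more RNA per cell cannot be told apart.

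The CXCR2 ligands Cxcl2 and Cxcl3 rose in vehicle colon. Of 7 tested genes of neutrophil-recruiting chemokines and the G-CSF axis 2 rose (median 2.39). All 7 had positive differences, beside 5839 of all 14129 genes tested. Cxcl2 was at 3.46, 26.2 and 1148 TPM in vehicle and at 0, 0.231 and 1.10 TPM in sham libraries (4.88 ± 1.11, adjusted p = 0.0181). Cxcl3 was at 1.60, 7.85 and 341 TPM in vehicle, against a highest sham library of 0.232 TPM (3.91 ± 1.07, adjusted p = 0.0466). Both are small chemokines that draw neutrophils, neither overlapped between groups, and the Cxcl3 call held in 2 of the 12 fits that left out a library. Cxcl5, a CXCR2 ligand of epithelium, was at 0.844, 11.6 and 167 TPM in vehicle and 0.076, 0.233 and 1.20 TPM in sham libraries and did not pass (3.23 ± 1.11, adjusted p = 0.112).

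Several cytokine genes had positive differences that did not pass the threshold. Il1b, the inflammasome-processed pyrogen, was at 104, 1564, 12.3, 10.9, 9.14 and 53.4 TPM in vehicle replicates 1 to 6 and at 1.96, 3.46 and 4.24 TPM (lowest, median and highest) in sham libraries. Its log2 difference was 3.56 ± 1.04 (limma adjusted p = 0.0611), so the groups were separate but the vehicle libraries were widely spread. Il1a (2.68 ± 0.84, adjusted p = 0.0800), the gp130 cytokine Osm (2.34 ± 0.73, adjusted p = 0.0805) and the macrophage chemokine Ccl3 (3.48 ± 0.99, adjusted p = 0.0528) also had groups that did not overlap. None of 17 CC chemokines, 12 interleukin-1 family genes and 16 genes of TNF signalling passed, with medians of 0.51, 0.43 and 0.33. Of them 11, 10 and 11 had positive differences, beside 5839 of all 14129 genes tested. Tnf itself was at 0.905, 2.11 and 37.2 TPM in vehicle and at 0.738, 1.49 and 2.67 TPM in sham libraries (0.87 ± 0.60, adjusted p = 0.479), and its groups overlapped.

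Several cytokines were too low to enter the test. Il6 was at 0.23, 1.44 and 24.2 TPM in vehicle and at 0, 0.118 and 0.274 TPM in sham libraries. Csf3, the gene of G-CSF and chosen after its values were seen, was at 0.05, 0.869 and 44.2 TPM in vehicle and at most at 0.071 TPM in sham libraries. The T helper and innate lymphoid cytokines Il17a, Il22 and Il23a reached at most 0.5, 1.3 and 1.03 TPM in vehicle and at most 0, 0.118 and 0.244 TPM in sham libraries. The inflammasome sensor Nlrp3 was at 0.333, 1.70 and 91.2 TPM in vehicle and at 0.095, 0.257 and 0.287 TPM in sham libraries, without overlap.

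**Figure D3:**
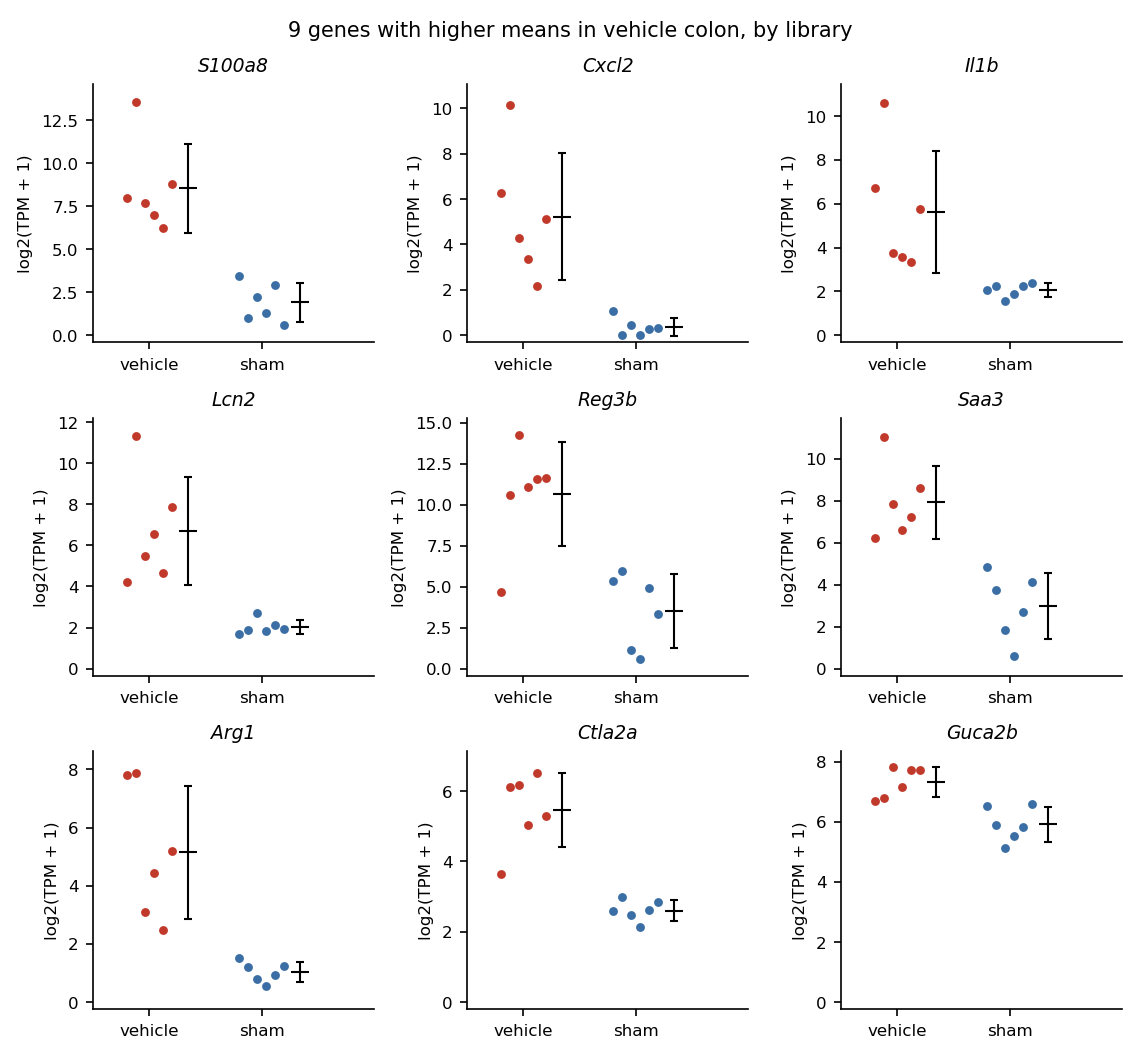
Log2(TPM + 1) of 9 genes, with a point for each of 6 vehicle (red, left) and 6 sham (blue, right) libraries and a black bar for mean and SD. All but Il1b passed the threshold; vehicle replicate 2, the second red point, is the highest for S100a8, Cxcl2, Il1b, Lcn2, Saa3 and Arg1, and vehicle replicate 3 for Reg3b.

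Antimicrobial genes held the largest positive difference among the genes named here. Reg3b (chr6:78370885-78373466), a C-type lectin that epithelium secretes onto bacteria, was at 24.7, 2629 and 19326 TPM in vehicle and at 0.478, 19.1 and 60.6 TPM in sham libraries, a log2 difference of 7.11 ± 1.56 (limma adjusted p = 0.0159). Vehicle replicate 1 at 24.7 TPM lay inside the sham range, and the other 5 vehicle libraries lay above it at 1527 TPM or more. Reg3g, its close paralog, rose by 4.38 ± 1.20 (adjusted p = 0.0465), with vehicle at 6.55, 302 and 1363 TPM and sham at 0.308, 15.8 and 31.9 TPM, and passed in 1 of the 12 fits that left out a library. Lcn2, which binds bacterial siderophores and comes from neutrophils and epithelium, was at 17.8, 67.7 and 2601 TPM in vehicle and at 2.27, 2.76 and 5.43 TPM in sham libraries (4.66 ± 1.09, adjusted p = 0.0215).

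Of 23 tested antimicrobial genes these 3 rose and 1 fell, with a list median of 0.36. The gene that fell was Lypd8, whose product keeps flagellated bacteria off the mucosa: it was at 6459, 12379 and 18419 TPM in vehicle and at 17613, 20160 and 29075 TPM in sham libraries (-0.90 ± 0.23, adjusted p = 0.0315). The Lypd8 call held in 5 of the 12 fits that left out a library. Slpi, a secreted protease inhibitor, was at 25.7, 88.6 and 395 TPM in vehicle and at 16.1, 26 and 37.0 TPM in sham libraries and did not pass (1.71 ± 0.53, adjusted p = 0.0792).

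Of 14 acute-phase genes 4 rose and none fell (median 0.90). Saa3, a local serum amyloid A, was at 73.9, 189 and 2091 TPM in vehicle and at 0.522, 8.89 and 28.0 TPM in sham libraries (4.94 ± 1.01, adjusted p = 0.0105). Haptoglobin, Hp, was at 12, 220 and 928 TPM in vehicle and at 0.149, 0.847 and 20.4 TPM in sham libraries (5.45 ± 1.19, adjusted p = 0.0155). Saa3 separated the groups, while for Hp the lowest vehicle library lay below the highest sham library. The protease inhibitor Serpina3n rose by 2.93 ± 0.51 (adjusted p = 0.0051; vehicle 29.5, 54.4 and 174 TPM, sham 3.65, 6.90 and 16.6 TPM) and the leucine-rich glycoprotein Lrg1 by 2.70 ± 0.75 (adjusted p = 0.0490; vehicle 9.14, 17.9 and 101 TPM, sham 1.31, 3.29 and 7.20 TPM). Neither overlapped, and the Lrg1 call held in 3 of the 12 fits that left out a library. Adipocyte genes stood high in some of the libraries that were high for Hp and Serpina3n. Vehicle replicates 6 and 4, the highest vehicle libraries for Hp (928 and 379 TPM) and Serpina3n (174 and 115 TPM), had summed adipocyte TPM of 4353 and 4714, against 181 to 1682 in the other 4. Sham replicates 6 and 2, the highest sham libraries for Hp (20.4 and 13.7 TPM) and Serpina3n (16.6 and 14.2 TPM), had sums of 5268 and 1625, against 177 to 353 in the other 4. The part of adipose tissue in these genes was not tested.

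Of 21 tested monocyte and macrophage markers, 2 rose and none fell. Arg1, which turns arginine into ornithine and is induced in wound macrophages and in immature myeloid cells, was at 220, 232, 7.67, 20.9, 4.62 and 35.5 TPM in vehicle replicates 1 to 6 and at 0.486, 1.11 and 1.86 TPM in sham libraries (4.11 ± 1.13, adjusted p = 0.0477). Chil3, a chitinase-like protein of myeloid cells, was at 1.14, 10.8 and 80.3 TPM in vehicle and at 0, 0.0625 and 0.42 TPM in sham libraries (3.61 ± 0.91, adjusted p = 0.0306). Both separated the groups, and in the 12 fits that left out a library Arg1 passed in 2 and Chil3 in 6. The list median was 0.47, at 1.33 in the Hoxb13-high libraries and -0.09 in the others, and summed TPM over the list was 1122 to 3161 in vehicle and 1644 to 3575 in sham libraries. Arg2, the mitochondrial arginase, chosen after its values were seen, was at 15.9, 28.0 and 75.0 TPM in vehicle and 3.30, 9.91 and 25.2 TPM in sham libraries (1.49 ± 0.42, adjusted p = 0.0499), with overlapping groups. The Arg2 call held in 4 of the 12 fits that left out a library. Its difference was 2.18 in the Hoxb13-high and 0.27 in the other libraries. No lymphocyte marker passed: 15 tested T cell and NK markers had a median of 0.32 and 15 B cell and plasma cell markers a median of 0.05.

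Other genes rose as well. Ctla2a, a cysteine protease inhibitor related to a cathepsin propeptide and chosen after its values were seen, was at 11.4, 53.4 and 90.6 TPM in vehicle and at 3.36, 5.08 and 6.89 TPM in sham libraries (2.85 ± 0.44, adjusted p = 0.00261). It passed in all 30 alternatives, and its difference was 2.46 in the Hoxb13-high and 3.19 in the other libraries. Mmp7, a metalloproteinase of injured epithelium, was at 9.92, 35.9 and 113 TPM in vehicle and at 0.372, 3.23 and 11.1 TPM in sham libraries (3.12 ± 0.74, adjusted p = 0.0223). Sham replicates 1 and 6 were at 7.94 and 11.1 TPM of Mmp7 and the other sham libraries at 0.372 to 3.73 TPM. Mmp7 passed with Hoxb13 as a covariate (2.28, limma adjusted p = 0.0299) but not without vehicle replicates 3, 4 and 5 (2.34, limma adjusted p = 0.0853). The part of the Hoxb13 level in the Mmp7 result was not tested. The 19 metalloproteinases and inhibitors had a median of 0.74, and Timp1, an inhibitor of these enzymes, did not pass (2.98 ± 0.92, adjusted p = 0.0745) although its vehicle libraries at 13.9, 32.3 and 221 TPM lay above its sham libraries at 2.24, 3.61 and 6.56 TPM.

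The secreted selenoprotein Gpx3, a glutathione peroxidase, was at 63.7, 97.3 and 131 TPM in vehicle and at 33.0, 42.6 and 60.8 TPM in sham libraries (1.19 ± 0.24, adjusted p = 0.00899), a modest difference with no overlap. Gal, the neuropeptide galanin, was at 22.8, 35.8 and 105 TPM in vehicle and at 4.19, 7.83 and 20.5 TPM in sham libraries (2.06 ± 0.55, adjusted p = 0.0418). It alone of 22 tested enteric neuron and glia genes passed, and the list median was 0.15. Galanin separated the groups and passed in 3 of the 12 fits that left out a library, with a difference of 2.99 in the Hoxb13-high and 0.59 in the other libraries.

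Several genes of the mature absorptive colonocyte fell. Of 32 tested, 10 fell and 1 rose, with a list median of -0.59, at -0.37 in the Hoxb13-high and -1.04 in the other libraries. Aqp8 (chr7:123462294-123468003), the water channel of the surface colonocyte, was at 13.5, 77.4 and 252 TPM in vehicle and at 680, 761 and 1117 TPM in sham libraries (-3.86 ± 0.73, limma adjusted p = 0.00718). Every vehicle library stood below every sham library. Slc26a3, the chloride and bicarbonate exchanger that is mutated in congenital chloride diarrhoea in humans, was at 39.7, 198 and 283 TPM in vehicle and at 725, 817 and 1888 TPM in sham libraries (-2.66 ± 0.46, adjusted p = 0.0050). Car4, a membrane carbonic anhydrase, was at 317, 493 and 574 TPM in vehicle and at 821, 1470 and 2048 TPM in sham libraries (-1.51 ± 0.24, adjusted p = 0.00261). These 3 genes passed in all 30 alternatives.

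The surface phosphate carrier Slc20a1 was at 24.7, 39.7 and 97.5 TPM in vehicle and at 98.8, 363 and 1086 TPM in sham libraries (-2.80 ± 0.56, adjusted p = 0.00899), and the membrane mucin Muc3 at 512, 1250 and 1592 TPM against 1677, 2725 and 4088 TPM in sham libraries (-1.39 ± 0.27, adjusted p = 0.00809). The member that rose was Guca2b, which encodes uroguanylin, a peptide agonist of guanylate cyclase C, and is named outside the rule. It was at 101, 175 and 222 TPM in vehicle and at 33.7, 56.9 and 96.2 TPM in sham libraries (1.39 ± 0.33, adjusted p = 0.0197). Sham replicates 1 and 6 were at 91.6 and 96.2 TPM and the other sham libraries at 33.7 to 58.6 TPM. Guca2b passed with Hoxb13 as a covariate (1.01, limma adjusted p = 0.0241) but not without vehicle replicates 3, 4 and 5 (1.14, limma adjusted p = 0.0825). All 3 genes separated the groups. Slc20a1 was at 111 and 98.8 TPM in sham replicates 1 and 6 and at 284 to 1086 TPM in the other sham libraries. It passed with Hoxb13 as a covariate (-2.06, limma adjusted p = 0.00343) but not without vehicle replicates 3, 4 and 5 (-2.09, limma adjusted p = 0.0591). The part of the Hoxb13 level in Slc20a1 and Guca2b was not tested.

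Some ion carriers and the aldosterone receptor also fell. Of 27 tested ion and water transport genes 4 fell and none rose (median -0.46). Slc26a2, a sulfate carrier, was at 22.2, 61.8 and 108 TPM in vehicle and at 154, 206 and 605 TPM in sham libraries (-2.08 ± 0.38, adjusted p = 0.00605). Nr3c2, the mineralocorticoid receptor, was at 8.77, 17.9 and 25.5 TPM in vehicle and at 29.1, 34.6 and 65.5 TPM in sham libraries (-1.16 ± 0.24, adjusted p = 0.00937). Scnn1a, the alpha subunit of the epithelial sodium channel, was at 9.49, 17.0 and 32.7 TPM against 22.4, 59.3 and 92.7 TPM in sham libraries (-1.53 ± 0.37, adjusted p = 0.0220). The genes of the beta and gamma subunits of this channel did not pass (0.01 and -0.15, limma adjusted p = 0.99 and 0.892). Slc26a2 and Nr3c2 did not overlap between groups, and Scnn1a did. Scnn1a was at 32.6 and 22.4 TPM in sham replicates 1 and 6 and at 58.5 to 92.7 TPM in the other sham libraries. It passed with Hoxb13 as a covariate (-1.08, limma adjusted p = 0.0208) but not without vehicle replicates 3, 4 and 5 (-1.24, limma adjusted p = 0.0864). The part of the Hoxb13 level in the Scnn1a result was not tested. Outside the naming rule, the short-chain fatty acid carrier Slc5a8 fell by 1.28 on the log2 scale (SE 0.33, adjusted p = 0.0345) and the sodium-proton exchanger Slc9a2 by 1.03 (SE 0.28, adjusted p = 0.0397). In the 12 fits that left out a library Slc5a8 passed in 5 and Slc9a2 in 4.

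Among the genes that fell most were several that are not classed as transporters of bulk ions. Slc30a10, a manganese exporter, was at 0.43, 4 and 6.76 TPM in vehicle and at 11.7, 21.4 and 32.6 TPM in sham libraries (-2.47 ± 0.54, adjusted p = 0.0154). Trpv3, a heat-gated cation channel, was at 0.071, 1.01 and 18.2 TPM in vehicle and at 5.94, 25.9 and 48.2 TPM in sham libraries (-3.15 ± 0.74, adjusted p = 0.0218). Pdzd7, a scaffold protein known from hair cell stereocilia, was at 0.073, 0.59 and 3.56 TPM in vehicle and at 5.87, 11 and 17.4 TPM in sham libraries (-2.69 ± 0.48, adjusted p = 0.00577). Trpv3 overlapped between groups, and Slc30a10 and Pdzd7 did not. The Trpv3 call held in 6 of the 12 fits that left out a library. Trpv3 was at 11.3 and 5.94 TPM in sham replicates 1 and 6 and at 23.8 to 48.2 TPM in the other sham libraries. It passed with Hoxb13 as a covariate (-2.13, limma adjusted p = 0.0061) but not without vehicle replicates 3, 4 and 5 (-2.09, limma adjusted p = 0.123). The part of the Hoxb13 level in the Trpv3 result was not tested.

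Sycn, which encodes syncollin, a protein of pancreatic secretory granules, was at 200, 322 and 635 TPM in vehicle and at 1161, 2858 and 3434 TPM in sham libraries (-2.78 ± 0.47, adjusted p = 0.00484). The pancreas-associated genes Clps (colipase; -1.42 ± 0.35, adjusted p = 0.0253) and Cela1 (an elastase; -1.91 ± 0.76, adjusted p = 0.179) were also present, at 8.91 to 24.1 and 5.94 to 112 TPM in vehicle and at 16.2 to 81.4 and 27.4 to 205 TPM in sham libraries. Among defining enzymes of pancreatic acinar cells, carboxypeptidase Cpa1 was listed at 0 in all 12 libraries, and trypsinogen Prss2 reached 0.252 TPM in a vehicle library and was listed at 0 in all 6 sham libraries.

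**Figure D4:**
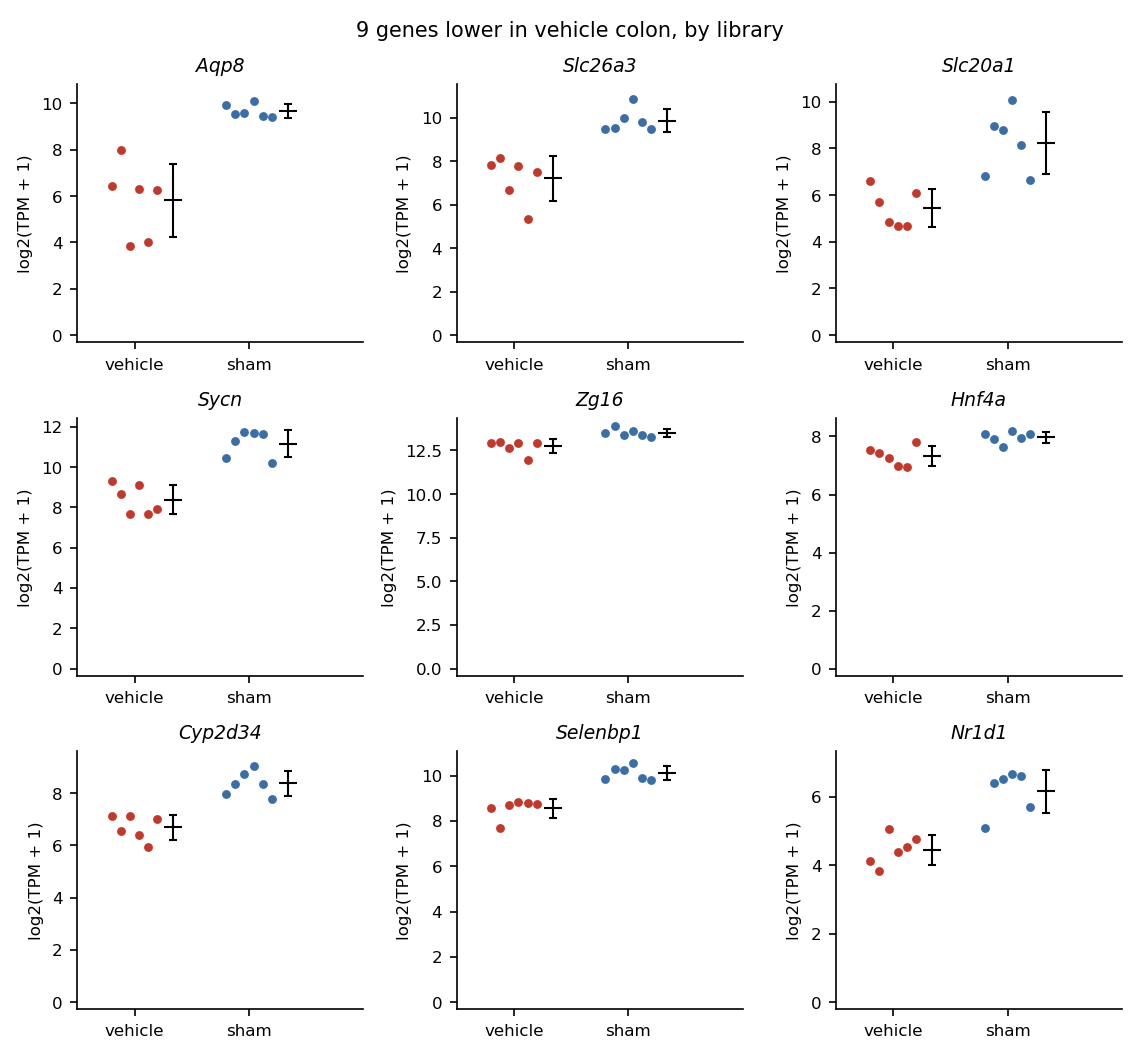
Log2(TPM + 1) of 9 genes that were lower in vehicle colon, with a point for each of 6 vehicle (red, left) and 6 sham (blue, right) libraries and a black bar for mean and SD. The groups do not overlap for any but Hnf4a.

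A few barrier genes fell. Of 24 tested claudin and junction genes 4 fell and none rose (median -0.35, at 0.00 in the Hoxb13-high and -0.81 in the other libraries), and 1 to 6 were lower over the 12 fits that left out a library. Cldn23, a claudin of the surface epithelium, was at 37.4, 45.4 and 65.8 TPM in vehicle and at 65.9, 69.3 and 101 TPM in sham libraries (-0.69 ± 0.16, adjusted p = 0.0190), and the groups met without overlapping. The tight junction gene Ocln fell by 0.87 on the log2 scale (SE 0.24, adjusted p = 0.0477), with vehicle at 19.3, 43.1 and 53.8 TPM and sham at 40.6, 69.8 and 95.0 TPM. The desmosomal cadherin Dsg2 fell by 0.83 (SE 0.22, adjusted p = 0.0417), from overlapping groups at 58.2, 117 and 141 TPM in vehicle and 120, 186 and 224 TPM in sham libraries. The Ocln and Dsg2 calls each held in 4 of these 12 fits. Tjp1, which encodes ZO-1, had a difference of -0.71 ± 0.22 (adjusted p = 0.0756), and the pore-forming claudin Cldn2 a difference of 1.18 ± 0.36 (adjusted p = 0.0736), with vehicle at 48.0, 82.6 and 149 TPM and sham at 25.8, 33.6 and 53.9 TPM. The Cldn2 and Tjp1 differences had opposite signs, and neither passed.

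Of 22 goblet cell and mucus genes 3 fell and none rose (median -0.34). Zg16, a lectin-like protein of the inner mucus layer, was at 3997, 7812 and 8200 TPM in vehicle and at 9825, 11159 and 15139 TPM in sham libraries (-0.76 ± 0.21, adjusted p = 0.0440). Tff3, the trefoil peptide of goblet cells, was at 1214, 2004 and 3530 TPM in vehicle and at 2723, 3776 and 4559 TPM in sham libraries (-0.86 ± 0.24, adjusted p = 0.0491), and Fer1l6, named outside the rule, had a difference of -1.26 ± 0.36 (adjusted p = 0.0497). In the 12 fits that left out a library Zg16 passed in 3, Tff3 in 1 and Fer1l6 in 2, and none of the 3 passed with Hoxb13 as a covariate (adjusted p = 0.0818, 0.0659 and 0.0941). Clca1, a secreted mucus-processing protein, was at 10252, 1342, 303, 1281, 210 and 841 TPM in vehicle replicates 1 to 6 and at 1778, 7382 and 11635 TPM in sham libraries. Vehicle replicate 1 lay within the sham range, the other 5 lay below it, and the difference of -2.58 ± 0.82 did not pass (adjusted p = 0.0837). The goblet list median was 0.22 in the Hoxb13-high and -1.03 in the other libraries. The medians of all genes were 0.19 and -0.40, so the sign differed between the sets for all genes as well. The part of the Hoxb13 level in this was not tested.

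Of 28 tested epithelial transcription factors, 3 fell and 1 rose, and 2 to 5 fell over the 12 fits that left out a library. Klf4, a factor of post-mitotic surface and goblet cells, was at 108, 188 and 218 TPM in vehicle and at 225, 305 and 377 TPM in sham libraries (-0.78 ± 0.18, adjusted p = 0.0170). Hnf4a, the nuclear receptor that maintains enterocyte genes, was at 121, 161 and 224 TPM in vehicle and at 199, 258 and 291 TPM in sham libraries (-0.66 ± 0.15, adjusted p = 0.0173). The vitamin D receptor Vdr fell by 0.87 on the log2 scale (SE 0.22, adjusted p = 0.0314), a call that held in 5 of these 12 fits. Creb3l3, a membrane-bound factor that liver activates in the acute-phase response, rose, at 1.71, 4.74 and 10.6 TPM in vehicle and 0.205, 1.06 and 1.35 TPM in sham libraries (1.51 ± 0.35, adjusted p = 0.0174).

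A pair of receptor subunits through which colonocytes read lymphocyte cytokines fell, beside cytokine genes that were near 0 in both groups. Il22ra1, the epithelial subunit of the IL-22 receptor, was at 6.68, 14.5 and 25.6 TPM in vehicle and at 21.7, 33.4 and 37.0 TPM in sham libraries (-1.09 ± 0.25, adjusted p = 0.0190). Il17rc, a subunit of the IL-17 receptor, was at 28.6, 37.0 and 56.1 TPM in vehicle and at 57.0, 61.9 and 79.5 TPM in sham libraries (-0.72 ± 0.14, adjusted p = 0.00899). These were the 2 called genes among 8 tested of the IL-17, IL-22 and IL-23 axis (median -0.40). Nlrp6, an epithelial inflammasome sensor, was at 28.8, 40.5 and 70.4 TPM in vehicle and at 62.3, 88.7 and 120 TPM in sham libraries (-0.95 ± 0.21, adjusted p = 0.0156), and Casp1, which cleaves pro-IL-1β, fell by 0.68 (SE 0.19, adjusted p = 0.0449), a call that held in 3 of the 12 fits that left out a library. Of 21 inflammasome and cell death genes these were the 2 that passed. The list median was 0.23 in the Hoxb13-high and -1.04 in the other libraries, beside 0.19 and -0.40 for all genes.

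Some detoxifying enzymes of the epithelium fell. Of 23 tested cytochrome P450 genes of families 2, 3 and 4, 5 fell and none rose (median -0.54). Cyp2d34 was at 59.8, 111 and 137 TPM in vehicle and at 216, 324 and 530 TPM in sham libraries (-1.68 ± 0.28, adjusted p = 0.00363). Cyp2d12 was at 0.995, 3.54 and 11.9 TPM in vehicle and at 10.4, 73.4 and 175 TPM in sham libraries (-3.42 ± 0.72, adjusted p = 0.0125), and Cyp2d13 at 0.045, 3.29 and 12.3 TPM against 8.58, 41.5 and 58.5 TPM in sham libraries (-3.14 ± 0.71, adjusted p = 0.0179). These 3 lie in the Cyp2d cluster of chromosome 15 and are close in sequence, so their separate values depend on how reads were shared among copies. In sham replicates 1 and 6 Cyp2d12 was at 10.4 and 11.4 TPM and Cyp2d13 at 15.8 and 8.58 TPM. In the other sham libraries they were at 70.3 to 175 and 41 to 58.5 TPM. Both passed with Hoxb13 as a covariate and neither without vehicle replicates 3, 4 and 5 (limma adjusted p = 0.0657 and 0.112). The part of the Hoxb13 level was not tested. Cyp2c68, named outside the rule, fell by 2.19 on the log2 scale (SE 0.47, adjusted p = 0.0131). Nr1i3, the xenobiotic receptor CAR that induces such enzymes in liver, was at 0, 0.333 and 1.15 TPM in vehicle and at 1.53, 4.65 and 10.3 TPM in sham libraries (-1.86 ± 0.34, adjusted p = 0.00616).

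Of 34 conjugating enzymes 5 fell and none rose (median -0.20). Glutathione transferase Gstm1 was at 76.2, 96.0 and 138 TPM in vehicle and at 116, 186 and 242 TPM in sham libraries (-0.87 ± 0.18, adjusted p = 0.00899), with a difference of -1.27 in the Hoxb13-high and -0.25 in the other libraries. Gstm3 was at 1.44, 2.30 and 3.57 TPM in vehicle and at 3.64, 5.30 and 6.77 TPM in sham libraries (-0.94 ± 0.19, adjusted p = 0.00775). The alcohol and retinol dehydrogenase Adh1 was at 89.0, 180 and 693 TPM in vehicle and at 345, 1112 and 2267 TPM in sham libraries (-2.16 ± 0.60, adjusted p = 0.0483). It was the 1 call among 23 retinoid metabolism genes, beside 4.13% of all tested genes that were lower. The call held in 3 of the 12 fits that left out a library. Adh1 was at 345 and 360 TPM in sham replicates 1 and 6 and at 1029 to 2267 TPM in the other sham libraries. It passed with Hoxb13 as a covariate (-1.32, limma adjusted p = 0.015) but not without vehicle replicates 3, 4 and 5 (-1.40, limma adjusted p = 0.206). The part of the Hoxb13 level in the Adh1 result was not tested.

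Genes of hydrogen sulfide handling, a task of colonocytes that face sulfide-making bacteria, had 4 of 11 lower and none higher (median -0.19). Selenbp1, a methanethiol oxidase, was at 207, 421 and 460 TPM in vehicle and at 890, 1083 and 1495 TPM in sham libraries (-1.55 ± 0.26, adjusted p = 0.00363). Its neighbour and close paralog Selenbp2 was at 21.9, 37.3 and 40.8 TPM in vehicle and at 90.5, 95.3 and 155 TPM in sham libraries (-1.60 ± 0.25, adjusted p = 0.00261). The thiosulfate sulfurtransferase Tstd1 was at 134, 176 and 186 TPM in vehicle and at 239, 260 and 306 TPM in sham libraries (-0.68 ± 0.15, adjusted p = 0.0170). None of the 3 overlapped between groups, and reads of the Selenbp pair may be shared.

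The sterol exporter genes Abcg5 and Abcg8 fell. Abcg5, which with Abcg8 pumps plant sterols and cholesterol back to the lumen, was at 0.059, 0.597 and 4.10 TPM in vehicle and at 1.35, 13.2 and 30.2 TPM in sham libraries (-2.64 ± 0.56, adjusted p = 0.0125). Sham replicates 1 and 6 were at 1.35 and 5.43 TPM and the other sham libraries at 12.1 to 30.2 TPM. Abcg5 passed with Hoxb13 as a covariate (-1.98, limma adjusted p = 0.0107) but not without vehicle replicates 3, 4 and 5 (-1.99, limma adjusted p = 0.0726). The part of the Hoxb13 level in the Abcg5 result was not tested. Abcg8, named outside the rule and divergently transcribed from the same locus on chromosome 17, was at 0.071, 0.326 and 1.13 TPM in vehicle and at 0.754, 4.38 and 8.17 TPM in sham libraries (-1.79 ± 0.32, adjusted p = 0.00595). Of 24 cholesterol synthesis and lipogenesis genes 23 had negative differences, whereas 5839 of all 14129 genes tested had positive ones. The list median was -0.59, at -0.05 in the Hoxb13-high and -1.17 in the other libraries. Of the 24 genes 1 passed, beside 4.13% of all tested genes that were lower. That gene was Insig1, a sterol-regulated brake on SREBP, at 10.3, 29.6 and 83.4 TPM in vehicle and 73.9, 92.5 and 117 TPM in sham libraries (-1.60 ± 0.35, adjusted p = 0.0157), whereas Hmgcs1, of the synthesis pathway itself, had -0.90 ± 0.29 (adjusted p = 0.0837).

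Ppargc1a, the coactivator PGC-1α of mitochondrial biogenesis, was at 3.46, 6.81 and 14.9 TPM in vehicle and at 15.4, 24.1 and 35.5 TPM in sham libraries (-1.61 ± 0.31, adjusted p = 0.00718). Its relative Ppargc1b fell by 0.87 on the log2 scale (SE 0.23, adjusted p = 0.0415), a call that held in 4 of the 12 fits that left out a library. The nuclear genes of oxidative phosphorylation, 28 in all, had a median of -0.10 and 1 lower call, beside 4.13% of all tested genes that were lower. The 13 genes of the mitochondrial genome had a median of 0.07 and no call. The prostaglandin carrier Slco2a1 was at 10.1, 16.9 and 22.6 TPM in vehicle and at 27.2, 38.3 and 49.9 TPM in sham libraries (-1.16 ± 0.22, adjusted p = 0.0071). Ppargc1a and Slco2a1 did not overlap between groups.

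Several clock genes fell. The sample titles give the day but no hour of collection, so the part of the hour in these differences was not tested. Nr1d1 (chr11:98767932-98775377), which encodes the repressor REV-ERBα, was at 13.4, 20.9 and 32.6 TPM in vehicle and at 33.4, 87.1 and 100.0 TPM in sham libraries (-1.72 ± 0.26, limma adjusted p = 0.0023). Dbp, a PAR bZIP activator under direct clock control, was at 12.6, 16.6 and 17.5 TPM in vehicle and at 18.4, 72.0 and 101 TPM in sham libraries (-1.77 ± 0.33, adjusted p = 0.00685). Every vehicle library lay below every sham library in both genes, and sham replicate 1 was the lowest sham library in both. Nr1d2 fell by 0.91 on the log2 scale (SE 0.21, adjusted p = 0.0173) and Per3, named outside the rule, by 1.08 (SE 0.30, adjusted p = 0.0448; called in 3 of the 12 fits that left out a library). Nfil3, a repressor that opposes Dbp at shared sites and is named outside the rule, rose, at 7.18, 9.87 and 30.0 TPM in vehicle and 1.65, 3.11 and 5.48 TPM in sham libraries (1.56 ± 0.39, adjusted p = 0.0297). The Nfil3 call held in 6 of the 12 fits that left out a library. Of 20 clock genes 4 fell and 1 rose (median -0.41). For Nr1d1 and Dbp the differences were -2.31 and -2.39 in the Hoxb13-high and -0.75 and -0.61 in the other libraries. Among 16 glucocorticoid receptor targets none passed, and Fkbp5, the most used of them, had 1.46 ± 0.42 (adjusted p = 0.0525).

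Many interferon-stimulated genes fell in vehicle colon. These genes answer type I and type III interferons through a complex that includes Stat2 and Irf9 and binds the interferon-stimulated response element in their promoters. Of 27 tested, 18 fell, none rose and all 27 had negative differences, with a median of -1.85 that was -1.75 after median-ratio scaling. Of all 14129 genes tested, 4.13% fell and 5839 had positive differences. The element is visible upstream of several of them in RefSeq promoters of GRCm38.p6, shown here 5′ to 3′ on the strand of the gene with matches to the element's core, GAAANNGAAA or its reverse complement TTTCNNTTTC, in capitals. The 4 are genes that fell, from the effector arm (Isg15, Rsad2, Ifit1) and the signalling arm (Stat2), at chr4:156200830-156200929 on the minus strand, chr12:26456518-26456617 on the minus strand, chr19:34640759-34640858 on the plus strand and chr10:128270248-128270330 on the plus strand.
Isg15: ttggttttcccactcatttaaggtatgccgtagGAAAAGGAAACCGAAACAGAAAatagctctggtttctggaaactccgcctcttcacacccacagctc
Rsad2: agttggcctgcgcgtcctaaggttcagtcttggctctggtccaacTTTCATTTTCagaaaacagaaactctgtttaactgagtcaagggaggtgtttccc
Ifit1: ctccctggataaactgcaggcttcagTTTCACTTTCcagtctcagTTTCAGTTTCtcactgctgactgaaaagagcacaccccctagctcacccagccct
Stat2: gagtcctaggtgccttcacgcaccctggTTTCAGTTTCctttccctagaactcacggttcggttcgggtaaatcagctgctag
In Isg15 3 overlapping matches form a single run, Ifit1 has 2 separate matches, and Rsad2 and Stat2 have 1 each. The match nearest to the start site begins 66 bases before it in Isg15, 120 in Rsad2, 85 in Ifit1 and 222 in Stat2. Over windows from 250 bases before to 50 after the start, with both strands searched and overlapping matches allowed, 10 of the 20 listed genes with a RefSeq promoter held the core, as did 6 of the 12 that fell. The core was in 35 of 415 other genes that fell (8.43%), in 405 of 10585 tested genes (3.83%) and in 1131 of all 32851 promoters (3.44%). A match is a description of sequence and does not show binding.

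Rsad2, which encodes the antiviral protein viperin, was at 2.99, 6.27 and 14 TPM in vehicle and at 12.8, 60.0 and 154 TPM in sham libraries (-2.66 ± 0.54, limma adjusted p = 0.0101). Isg15, a ubiquitin-like modifier, was at 48.5, 71.8, 83.7, 46.6, 82.6 and 37.4 TPM in vehicle replicates 1 to 6 and at 585, 1267, 75.3, 53.2, 706 and 285 TPM in sham replicates 1 to 6 (-2.28 ± 0.63, adjusted p = 0.0482). Sham replicates 3 and 4 lay among the vehicle libraries, and the other 4 sham libraries lay well above them. Ifit1, which binds viral RNA, was at 17.8, 29.5 and 45.9 TPM in vehicle and at 29.0, 213 and 541 TPM in sham libraries (-2.29 ± 0.61, adjusted p = 0.0405). In the 12 fits that left out a library Rsad2 passed in all, Ifit1 in 3 and Isg15 in 2, and Isg15 did not pass with Hoxb13 as a covariate (adjusted p = 0.0688).

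The same pattern across sham libraries held for the list, whose mean log2 level was 3.81 to 4.73 in vehicle and 6.72, 7.43, 4.35, 4.29, 6.94 and 6.01 in sham replicates 1 to 6. Summed TPM over the list was 557 to 1133 in vehicle and 824 to 6559 in sham libraries. The number of genes that fell was 10 without sham replicate 2 or 5, 11 without sham replicate 1 or vehicle replicate 4 or 5, and 12 without sham replicate 6 or vehicle replicate 2 or 6. It was 14 without vehicle replicate 3, 18 without vehicle replicate 1 and 23 without sham replicate 3 or 4. The Hoxb13-high sham libraries included both the lowest and the highest for this list, with Hoxb13 at 238 and 288 TPM in sham replicates 3 and 4 and at 218 and 230 TPM in sham replicates 2 and 5. The list median was -1.77 in the Hoxb13-high libraries, where 3 of the 27 genes were lower, and -2.16 in the other libraries, where 25 were lower. Over all genes tested, 1.97% and 12.9% were lower in these sets. The sham libraries of the other set were replicates 1 and 6, with list means of 6.72 and 6.01. Sham replicates 3 and 4, with means of 4.35 and 4.29, were both Hoxb13-high. The part of this division of sham libraries in the counts was not tested.

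Some interferon genes had smaller spreads. Irf9, of the signalling arm, was at 18.3, 21.9 and 33.6 TPM in vehicle and at 34.5, 63.0 and 75.6 TPM in sham libraries (-1.22 ± 0.22, adjusted p = 0.0051), and Rtp4, an interferon-induced chaperone of receptors, at 18.6, 25.5 and 41.2 TPM against 45, 102 and 186 TPM in sham libraries (-1.79 ± 0.33, adjusted p = 0.00682). Neither overlapped between groups, and both passed in all 30 alternatives. Chosen after their values were seen, Stat2 fell by 1.43 on the log2 scale (SE 0.32, adjusted p = 0.0170), the pro-apoptotic Xaf1 by 1.97 (SE 0.37, adjusted p = 0.00712), Oas2 by 2.48 (SE 0.65, adjusted p = 0.0368) and Mx2 by 2.21 (SE 0.55, adjusted p = 0.0279). Oas2 passed in 4 and Mx2 in 7 of the 12 fits that left out a library.

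**Figure D5:**
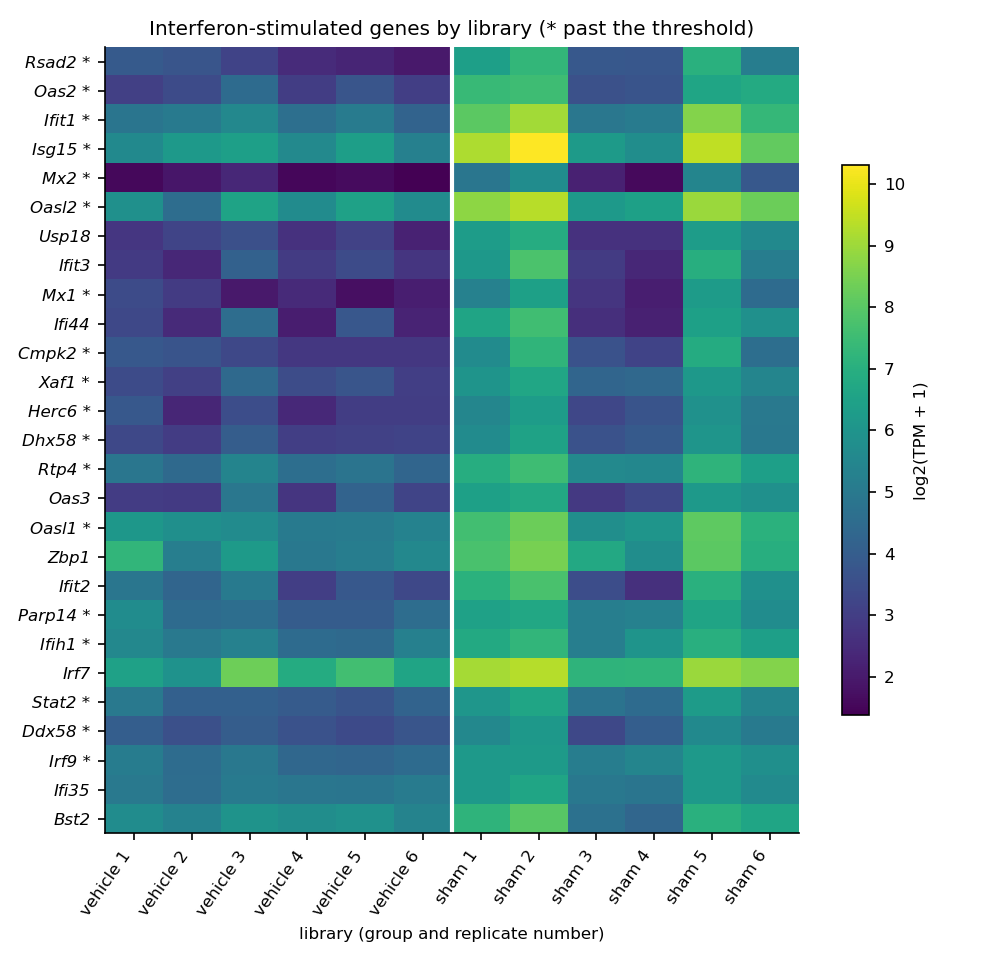
Log2(TPM + 1) of 27 interferon-stimulated genes (rows, most negative difference at the top) in 6 vehicle libraries (left of the white line) and 6 sham libraries (right); an asterisk marks the 18 genes past the threshold. Sham replicates 3 and 4, with list means of 4.35 and 4.29, lie in the vehicle range of 3.81 to 4.73, and sham replicate 2 is the highest for Isg15 at 1267 TPM.

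A few genes shared with interferon-γ fell. Of 21 tested, 5 fell and none rose, with a median of -0.95. In the Hoxb13-high libraries the median was -0.35 and none passed, and in the others it was -1.34 and 9 were lower. Over all genes tested, 1.97% and 12.9% were lower in these sets, with medians of 0.19 and -0.40. Sham replicates 3 and 4, the lowest sham libraries for interferon-stimulated genes, were both Hoxb13-high. The part of this in the contrast between the sets was not tested. The guanylate-binding protein Gbp7 was at 3.65, 5.99 and 32.2 TPM in vehicle and at 18.3, 34.7 and 64.4 TPM in sham libraries (-1.99 ± 0.42, adjusted p = 0.0127), and the immunity-related GTPase Irgm2 at 10.3, 13.5 and 57.3 TPM against 23.9, 70.0 and 116 TPM in sham libraries (-1.77 ± 0.42, adjusted p = 0.0216). In both, vehicle replicate 1 was the library that reached into the sham range. The factor Irf1, chosen after its values were seen, fell by 1.05 on the log2 scale (SE 0.29, adjusted p = 0.0452) and passed in 3 of the 12 fits that left out a library. None of 18 MHC class I and immunoproteasome genes and none of 12 MHC class II genes passed, with medians of -0.49 and 0.04. Slfn4, a Schlafen gene that interferon induces in myeloid cells, fell, at 16.3, 39.4 and 197 TPM in vehicle and 77.6, 544 and 1559 TPM in sham libraries (-3.07 ± 0.77, adjusted p = 0.0297). The Slfn4 call held in 6 of the 12 fits that left out a library.

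Stromal lists held almost no calls. At the shares of all tested genes that were higher (0.326%) and lower (4.13%), lists of this size would hold few. Bmp2, a BMP ligand of the upper crypt, was at 5.86, 7.71 and 15.5 TPM in vehicle and at 10.6, 33.1 and 46.5 TPM in sham libraries (-1.50 ± 0.36, adjusted p = 0.0215), the 1 call among 19 stromal WNT, R-spondin and BMP genes. None of 21 collagens, 18 fibroblast markers, 19 endothelial and lymphatic markers, 20 smooth muscle and pacemaker genes or 15 adipocyte genes passed, with medians of 0.01, 0.08, 0.37, -0.62 and 0.76. All 19 endothelial markers had positive differences, beside 5839 of all 14129 genes tested. Myh11, the smooth muscle myosin, was at 90.5, 154 and 470 TPM in vehicle and at 216, 308 and 393 TPM in sham libraries (-0.79 ± 0.35, adjusted p = 0.227), with vehicle replicate 4 the highest library of all.

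Cell cycle genes divided the vehicle group. None of 27 passed over all libraries, and their median was 0.16. In the Hoxb13-high libraries the median was 1.32 and 17 of the 27 were higher, and in the others it was -1.0 and 2 were lower. Over all genes tested, 7.28% were higher in the Hoxb13-high libraries and 12.9% lower in the others. Mki67, the proliferation antigen, was at 43.8, 57.4, 5.74, 6.29, 2.03 and 43.8 TPM in vehicle replicates 1 to 6 and at 14.5, 19.7 and 25.5 TPM (lowest, median and highest) in sham libraries (-0.37 ± 0.64, limma adjusted p = 0.817). Vehicle replicates 1, 2 and 6 lay above the whole sham range and vehicle replicates 3, 4 and 5 below it. The mean log2 level of the neutrophil markers lay above the sham range in both sets, with list medians of 3.87 in the Hoxb13-high and 1.38 in the other libraries. The list of 7 proximal colon genes had a median of 1.11, at 0.06 with Hoxb13 as a covariate, and Hoxa13 was at 0.63, 14 and 28.7 TPM in vehicle and 33.1, 38.1 and 68.0 TPM in sham libraries (-2.06 ± 0.73, adjusted p = 0.126). The part of the stretch of colon sampled in these results was not tested. Library identifiers run consecutively within each group, and the labels do not say what their order stands for.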

How the data were processed

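Per the labels, colon was homogenized in TRI Reagent, RNA was cleaned on RNeasy columns and cDNA was made with a FastKing kit. The authors deposited TPM for 35976 gene symbols in 18 libraries, and the submitters' processing notes name DRAGEN 4.0.3 and the build mm10. How reads were assigned to genes, the annotation, strandedness and depth are not stated there, and each column sums to 1000000. Groups and replicate numbers came from the sample titles and TNBS from the design text. Of the symbols, 32501 matched RefSeq GRCm38.p6, which gave coordinates (1-based) and promoters, and 27 symbols had been turned into dates.

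Values were analysed as log2(TPM + 1), with a pseudocount of 1, so that differences of genes near 0 are understated. Genes with at least 1 TPM in at least 6 of the 18 libraries were tested, 14129 in all, a filter that a gene can pass through 1 group alone. All 18 libraries were fitted together in limma 3.58.1 (R 4.3.3) with trended, robust empirical Bayes and no covariate, and the contrast was vehicle minus sham with Benjamini-Hochberg adjustment at 0.05. Differences are given with the standard error of the fit, and "passed" refers to this threshold. Scripts ran under Python 3.11.15 with SciPy 1.17.1.

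The 73 gene lists, with 1336 genes of which 1165 were tested, and the naming rule were chosen with earlier results of these data known, and no list was tested as a set. A few genes are not reported here and are left out of the lists. The rule took the 12 most positive and 12 most negative differences among passing genes that averaged 5 TPM or more in the group where they were higher, without predicted genes, immune receptor segments or mitochondrial genes, and for each list its defining members and 2 further members of smallest p. Of 118 genes named, 16 fall outside it. The 26 alternatives listed at the outset changed the pseudocount (0.1, 5), the filter, the scaling, the libraries fitted, the weights, covariates and a replicate block, and left out each library in turn; 4 on the Hoxb13 level or on vehicle replicates 3, 4 and 5 were added after seeing the data.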

Additional observations from a re-analysis of the deposited data

Results flagged for a closer look

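In 19 of 222 group and measure combinations (8.56%), the highest or lowest of 6 libraries stood apart from the nearest other by a share of the group's log2 range above Dixon's critical value, which chance exceeds in about 1 in 20 groups. Vehicle replicate 2 gave 7 of these and sham replicate 4 gave 5.

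In vehicle replicate 2 the neutrophil genes stood above the rest, with S100a8 at 12002 TPM (next 435), S100a9 at 10994 TPM (next 359), Retnlg at 1467 TPM (next 78.6) and Mmp8 at 164 TPM (next 9.96). The same library was the lowest of its group for Selenbp1 at 207 TPM (next 378), Selenbp2 at 21.9 TPM (next 34.3) and Dbp at 12.6 TPM (next 15.8). Vehicle replicate 1 was the highest for Trpv3 at 18.2 TPM (next 1.81), Gbp7 at 32.2 TPM (next 7.63) and Irgm2 at 57.3 TPM (next 18.6). Vehicle replicate 5, the library with the largest mitochondrial share, was the lowest for Zg16 at 3997 TPM (next 6451) and Klf4 at 108 TPM (next 179).

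Among sham libraries, replicate 4 was the highest for the transport genes Slc26a3 at 1888 TPM (next 1025), Slc26a2 at 605 TPM (next 235) and Slc5a8 at 205 TPM (next 103), for Nr3c2 at 65.5 TPM (next 38.7) and for Hoxa13 at 68.0 TPM (next 39.7). Mmp8 in sham replicate 1 at 0.309 TPM (next 0.037) and Chil3 in sham replicate 2 at 0.42 TPM (next 0.128) stood apart at levels near 0.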

How the results depend on the processing

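All 630 called genes, or those still tested, kept their sign in each of the 30 alternatives, and 22 of the 87 called genes named in the text passed in all 30. The alternatives share libraries with the main fit, so kept signs are no independent support. The number of genes higher in vehicle was 46, and that of genes lower was 584. Genes higher were 29 with a pseudocount of 5 and with no filter, 511 with median-ratio scaling, 540 with quantile normalization, 421 without mitochondrial genes, 287 with array weights, 167 with Hoxb13 and 930 with the mitochondrial share as covariate. Genes lower were 1004, 948 and 911 under those 3 scalings, 308 with only vehicle and sham fitted and 1267 with the mitochondrial share as covariate. Of the alternatives chosen after seeing the data, the libraries with Hoxb13 of at least 32 TPM gave 1028 higher and 279 lower, those under 32 TPM 110 and 1829, Hoxb13 with median-ratio scaling 792 and 1083, and leaving out vehicle replicates 3, 4 and 5 gave 1375 and 360. The causes of these shifts were not tested.

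Leaving out 1 library gave 20 to 80 genes higher and 314 to 884 lower. Moves of over 1.5 times came without sham replicates 1 (27 higher), 2 (22 and 314), 4 (20 and 328) and 5 (23 and 333) and vehicle replicates 1 (80 and 884), 4 (27 and 345) and 5 (319 lower). Of the 87 called genes named, 52 passed in all 12 of these fits, and the other 35 lost their call without at least 1 library, from 4 of them without vehicle replicate 1 to 32 without sham replicate 2. Over these fits the lower genes numbered 6 to 12 among colonocyte genes, 1 to 6 among junction genes, 0 to 6 among goblet cell genes and 1 to 8 among interferon-γ genes, and the higher macrophage markers 0 to 2.

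Genes short of the threshold changed sign as follows. Ly6g was at 0.60 with Hoxb13 as covariate, 0.56 with median-ratio scaling added and 0.81 without vehicle replicates 3, 4 and 5. Hoxb13 was at 0.00 with itself as covariate, by construction, and at 0.32 without those 3 libraries. Mki67 was at 0.34 with array weights, 0.33 with Hoxb13 and 0.05 with the mitochondrial share as covariate, -0.74 to 0.11 over the fits that left out 1 library, the positive value without vehicle replicate 5, 1.32 at Hoxb13 of at least 32 TPM, 0.28 with Hoxb13 and median-ratio scaling, and 1.23 without vehicle replicates 3, 4 and 5.

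Equal replicate numbers did not pair the libraries: deviations of same-numbered libraries correlated at -0.264 to 0.18, over 0.1 in 1 of 6 numbers, and 1 of 6 vehicle libraries correlated best with its own number. A replicate block gave 62 higher and 492 lower. TPM keep no depth, so the precision of low values is known only from the spread.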
